A study of Mus musculus with 32 samples.

Results

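The nuclear genes that encode the subunits of oxidative phosphorylation were followed through profiles of RNA polymerase II (Pol II) on chromatin of mouse heart, brain, kidney and liver. Members were chosen by gene symbol alone, as genes named for a subunit of respiratory complexes I to IV, of ATP synthase or for cytochrome c and c1. No measured value entered the choice, and 3 pseudogene symbols ending in -ps were left out. This gave 90 of the 27179 genes in the deposited table. Grouped by symbol, they comprised 41 genes of complex I, 4 of complex II, 9 of complex III, 18 of complex IV, 17 of ATP synthase and Cycs, the gene of cytochrome c.

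The study prepared each organ in both preservations. FFPE tissue was fixed in 10% formalin, embedded in paraffin, then deparaffinized and heated for extraction. Frozen tissue was flash frozen and crosslinked with 1% formaldehyde for 30 min, so that preservation and extraction differ together. Chromatin bound by Pol II was pulled down through the polymerase's C-terminal domain, and its DNA reads were counted over genes. The groups were therefore FFPE and frozen heart, brain, kidney and liver. All are mouse tissue with no genotype, treatment, strain, sex or age in the labels used here, and the number of animals is not given. The table has 1 column for each of these 8 groups, called a profile here; its title gives the assay as Pol II. The labels list 2 Pol II libraries per group and 16 in all, and no source used here says whether a profile is 1 of them or both. Every n is a number of profiles. Since nothing says that they came from separate animals, p-values reflect only how these profiles vary, which may be technical.

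The respiratory chain passes electrons from NADH through complex I, or from succinate through complex II, to complex III and then by cytochrome c to complex IV, which reduces oxygen. Complexes I, III and IV pump protons across the inner mitochondrial membrane, and ATP synthase uses the returning protons to make ATP. Apart from a few core subunits encoded by mitochondrial DNA, the subunits are encoded in the nucleus and are transcribed by Pol II. The heart, which contracts without pause, is the organ of these 4 that is best known for dense mitochondria. Several complex IV subunits have a form made in heart and skeletal muscle (Cox6a2, Cox7a1, Cox8b) beside a more general form (Cox6a1, Cox7a2, Cox8a). Mouse ATP synthase subunits carry the Atp5 names, and complex I subunits the Nduf names. All Nduf genes are counted with complex I here by name. Among them Ndufa4 and Ndufa4l2 are annotated only as mitochondrial complex associated, not as complex I subunits.

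The promoters of 5 genes on which the results turn are given here in the RefSeq sequence of build GRCm38.p6, the build named mm10. Each window runs 5′ to 3′ on the strand of its gene, from 250 bases before to 50 bases after the annotated start. Cycs (chr6:50566520-50566819, minus strand) and Uqcrc1 (chr9:108936398-108936697, plus strand) were called in an organ comparison, Ndufa6 (chr15:82354242-82354541, minus strand) in liver and in FFPE tissue. Cox8b (chr7:140900397-140900696, minus strand) and Cox8a (chr19:7217567-7217866, minus strand) are the muscle and the general form of the same complex IV subunit. Capitals mark matches to the motifs searched, in either direction. Cycs held an NRF1 motif, a CCAAT box and a GC box, Uqcrc1 a pair of NRF1 motifs, and Ndufa6 a CCAAT box, an NRF1 motif and a GC box. Cox8b held an E-box on either side of a TATA box, and Cox8a a CCAAT box and a pair of ETS motifs.
Cycs: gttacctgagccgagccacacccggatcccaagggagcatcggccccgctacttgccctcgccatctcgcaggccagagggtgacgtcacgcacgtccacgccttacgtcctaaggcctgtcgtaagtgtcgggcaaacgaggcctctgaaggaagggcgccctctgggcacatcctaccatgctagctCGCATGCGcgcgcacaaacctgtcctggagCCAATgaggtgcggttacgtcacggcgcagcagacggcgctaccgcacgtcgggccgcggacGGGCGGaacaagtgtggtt
Uqcrc1: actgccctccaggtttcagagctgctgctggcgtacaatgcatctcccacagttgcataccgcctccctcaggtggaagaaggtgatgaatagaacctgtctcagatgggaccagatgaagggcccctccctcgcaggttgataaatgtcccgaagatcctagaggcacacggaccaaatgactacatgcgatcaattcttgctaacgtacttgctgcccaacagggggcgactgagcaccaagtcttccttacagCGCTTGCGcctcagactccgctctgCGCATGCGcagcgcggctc
Ndufa6: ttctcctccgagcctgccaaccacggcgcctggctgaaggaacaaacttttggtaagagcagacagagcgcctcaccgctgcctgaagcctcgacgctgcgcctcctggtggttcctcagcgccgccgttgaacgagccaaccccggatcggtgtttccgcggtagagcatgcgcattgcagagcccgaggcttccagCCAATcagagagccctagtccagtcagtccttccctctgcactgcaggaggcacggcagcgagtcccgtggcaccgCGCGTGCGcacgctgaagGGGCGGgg
Cox8b: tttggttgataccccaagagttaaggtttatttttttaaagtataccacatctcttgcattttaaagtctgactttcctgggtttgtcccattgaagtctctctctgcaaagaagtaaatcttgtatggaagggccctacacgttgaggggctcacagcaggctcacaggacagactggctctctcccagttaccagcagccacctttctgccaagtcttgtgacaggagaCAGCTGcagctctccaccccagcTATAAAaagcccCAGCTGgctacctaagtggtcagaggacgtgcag
Cox8a: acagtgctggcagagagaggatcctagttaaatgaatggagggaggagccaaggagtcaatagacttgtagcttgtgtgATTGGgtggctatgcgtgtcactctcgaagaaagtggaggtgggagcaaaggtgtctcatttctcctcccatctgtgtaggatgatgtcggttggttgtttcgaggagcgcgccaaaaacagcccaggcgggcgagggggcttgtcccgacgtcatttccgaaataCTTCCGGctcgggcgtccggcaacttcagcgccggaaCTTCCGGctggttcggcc

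Of the 90 members, 70 had a promoter entry, 5 of them with 2 windows, which gave 75 windows of 300 bases beside 32851 windows in the whole table. Members had a median GC content of 57.3% and a median of 19 CG dinucleotides, against 52.7% and 7 over all windows. The core motif of NRF1 (CGCANGCG), a regulator of respiratory genes, occurred in 30 member windows (40%) and in 8.21% of all windows. The ETS motif that GABP also binds (CCGGAAG) occurred in 17 (22.7%), against 8.86% of all windows. The motif of YY1 (AANATGGCG) occurred in 10 (13.3%), against 2.38%, and the nuclear receptor half-site of the ERR factors (AAGGTCA) in 8 (10.7%), against 4.72%. None of these motifs contains another. The NRF1, ETS and YY1 motifs hold CG dinucleotides, of which member windows have more, and windows of like CG content were not compared. The 2 windows of a gene are counted separately and can both hold a motif, as in Atp5c1 for NRF1.

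The other motifs were closer to their background or below it. The GC box GGGCGG, an Sp1 motif, occurred in 30 member windows (40%), against 35.7% of all windows. The box CCAAT occurred in 42.7% of member windows, against 37.4% of all windows, and the TATA box TATAAA in 12% of member windows, against 13.6%. The E-box CAGCTG, which myogenic factors bind, occurred in 6 member windows (8%), against 16.3% of all windows, and Cox8b held 2 of these boxes. The GATA motif AGATAAG occurred in 0 member windows, against 3.04% of all windows. Motifs were searched on both strands; a match describes letters in the window and says nothing of a bound factor.

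Depth differed between profiles. Totals of reads in genes were 923888 in FFPE heart and 1583260 in frozen heart, inside the range of 864816 to 2178329 over all 8, and the median gene had 16 to 39 reads. A member had 0 to 259 reads in a profile, with a median of 32, and precision is low for the smallest. Genes of the mitochondrial genome took 25.6% of reads in FFPE heart, 12% in frozen heart, 19.2% in FFPE kidney and 7.73% to 11.8% in the other 5 profiles. Organ labels fitted their markers: all 8 cardiomyocyte genes, all 8 neuron genes, 5 of 6 proximal tubule genes and all 7 hepatocyte genes were called higher in their own organ. The endothelial genes were also higher in heart (5 of 5), at 630 and 759 RPM (reads over a scaled library total) in FFPE and frozen heart, against 132 to 328 elsewhere. In such bulk tissue, fewer cells of a type and less Pol II per cell cannot be told apart.

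Members took the largest share of nuclear-gene reads in heart. The share was 0.312% in FFPE heart (Clopper-Pearson 95% interval 0.299% to 0.325%) and 0.388% in frozen heart (0.378% to 0.398%). In FFPE tissue the other organs had 0.223% (brain; 0.216% to 0.230%), 0.241% (kidney; 0.232% to 0.250%) and 0.230% (liver; 0.220% to 0.241%). In frozen tissue they had 0.246% (brain; 0.239% to 0.254%), 0.265% (kidney; 0.257% to 0.273%) and 0.286% (liver; 0.278% to 0.293%). Both heart shares lay above all 6 others, and in each organ the FFPE share was the lower one. The intervals cover counting error only.

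**Figure D1:**
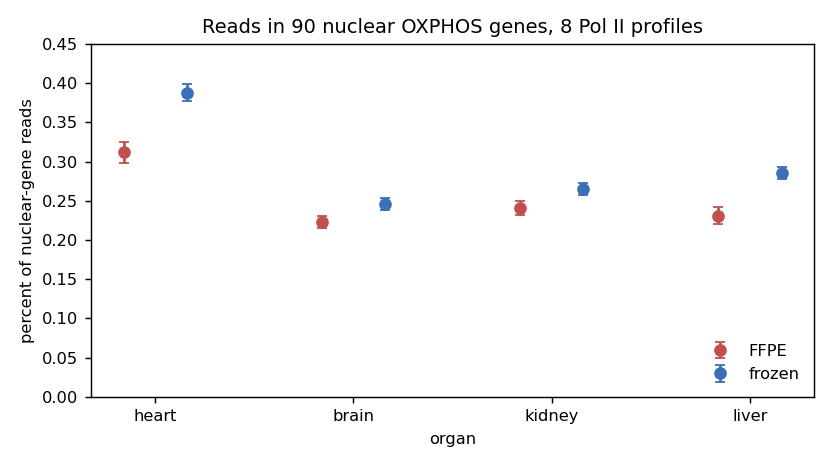
Reads in the 90 members as a percentage of all reads in nuclear genes (y axis) in FFPE and frozen profiles of each organ (x axis). Points are single profiles and bars are Clopper-Pearson 95% intervals, which cover counting error only. FFPE heart (0.312%) and frozen heart (0.388%) stand above the other 6 profiles, and within each organ the FFPE point is below the frozen one.

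Whether single members differed between organs was tested on the deposited values, which are log2 values of reads (plus 0.5) divided by a scaled library total and given as RPM. limma was fitted to 26758 genes with organ and preservation as terms, and a gene was called at a Benjamini-Hochberg adjusted p below 0.05. All 90 members passed the filter on low values (log2 of at least 0 in at least 2 profiles). In heart against the mean of the other organs (2 against 6 profiles), 3 members were called higher and 1 lower, where 3.06% of all genes tested were called higher and 2.18% lower. The count of higher members, 3 of 90 or 3.33%, is close to that background. It was 6 without FFPE liver (4.53% of all genes called higher) and 13 without frozen liver (4.97%), so it changed with the profiles used. The latter count was not close to its background. Leaving out a heart profile leaves 1, so only the median log2 difference of the members is given. It was 0.39 without frozen heart and 0.61 without FFPE heart. Without FFPE heart and FFPE kidney, the profiles with the highest mitochondrial share, that median was 0.61.

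Small differences in one direction were frequent among the members. Their median log2 difference in heart was 0.55, where the median over all genes tested was near 0 (0.00 after rounding). The difference was positive for 80 of 90 members (88.9%), against 49.8% of all genes, and 27 members (30%) had an unadjusted p below 0.05 in the upward direction and 1 (1.11%) in the downward, against 9.01% and 9.04% of all genes. Within FFPE tissue alone the median was 0.39 and 69 members were positive. Within frozen tissue it was 0.61 and 80 were positive. In 39 members (43.3%) heart was above every other organ both within FFPE and within frozen tissue, against 11.4% of all genes. In 1 member, Ndufb4b, it was below every other organ in both, against 8.64% of genes. Members are no replicates of each other, and in 30 of them the gene overlaps another, whose reads cannot be separated since the strand of counting is not given. The upward lean was not confined to the members: of 26 cytosolic ribosomal protein genes, 20 were also positive in heart (76.9%).

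The direction was shared by the complexes. ATP synthase had a median log2 difference in heart of 0.68, with 16 of 17 genes positive, and complex IV 0.71 with 16 of 18. Complex I had 0.48 with 34 of 41. Complex II, which also serves the citric acid cycle, had 0.41 with 4 of 4, and complex III 0.34 with 9 of 9. The 10 members with a negative difference were Ndufb4b, Ndufb4c, Ndufs6b, Ndufb3, Ndufa5, Ndufa10, Ndufv3, Atp5mpl, Cox8c and Cox7b2. Scaled to olfactory and vomeronasal receptor genes, silent in these organs, the members' heart median was 0.80 and that of all genes 0.25; over the scalings tried, 78 to 84 members were positive.

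**Figure D2:**
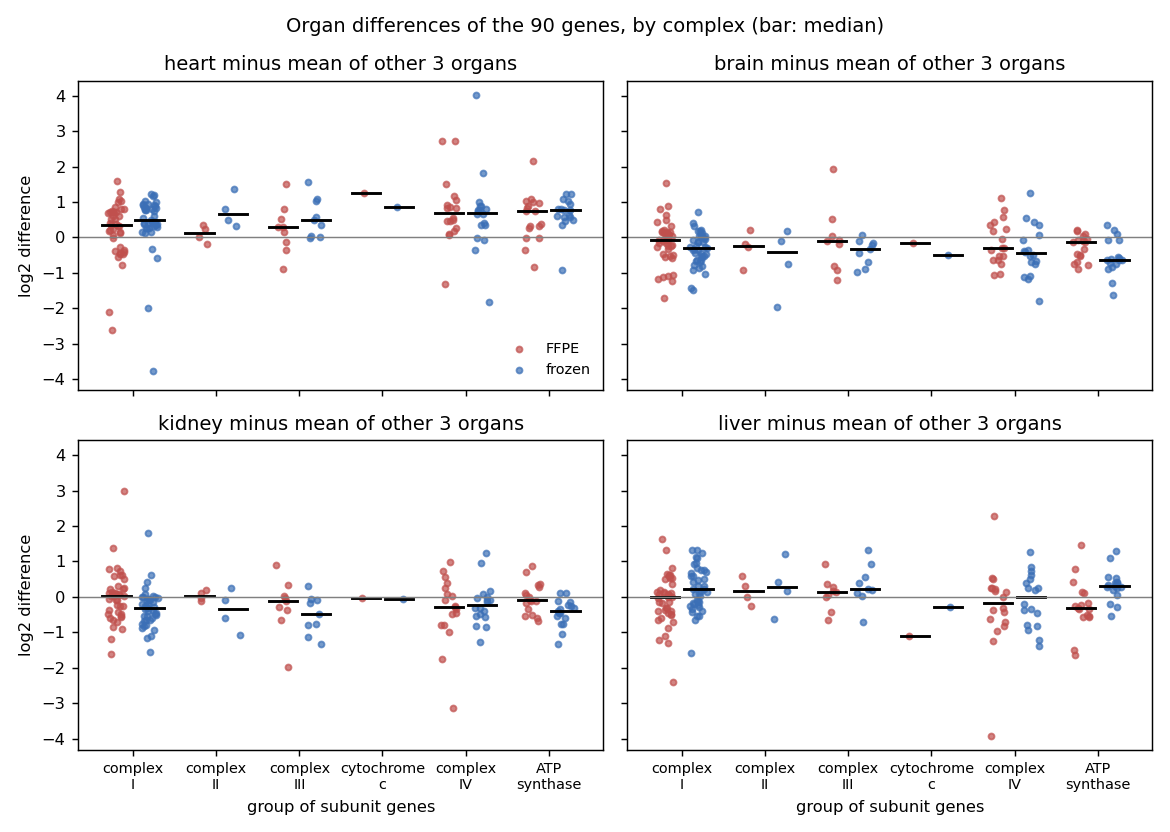
Log2 difference of each organ from the mean of the other 3 (y axis) for the 90 genes, by complex (x axis) and separately within FFPE and within frozen tissue; points are genes and bars are medians. Heart medians lie above 0 in every complex in both preservations, from 0.12 (complex II, FFPE) to 1.27 (cytochrome c, FFPE), and brain medians lie below 0.

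Cox6a2, the muscle form of a small complex IV subunit, was the member most raised in heart. It stood at log2 4.19 in FFPE heart (14 reads) and 5.60 in frozen heart (72 reads). In the other FFPE profiles it stood at 1.68 (brain), 0.83 (kidney) and 1.91 (liver), and in the other frozen profiles at 1.25 (brain), 1.97 (kidney) and 1.55 (liver), each from 2 to 7 reads. Both heart values lay above all 6 others. The log2 difference was 3.37 ± 0.68 (SE; limma adjusted p = 0.0037). Without the frozen heart profile the adjusted p was 0.220. The gene (chr7:128205435-128206366) overlaps the end of Itgad, an integrin gene, whose own difference was 1.08 ± 0.34 (adjusted p = 0.064).

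Heart values of its general partner Cox6a1 lay inside the range of the other organs. Cox6a1 had log2 values of 4.61 in FFPE and 4.61 in frozen heart, against 4.27 to 5.12 elsewhere, with a difference of 0.02 ± 0.33 (limma adjusted p = 0.983). Cox6a2 took 42.4% of the reads of the pair in FFPE heart (Clopper-Pearson 95% interval 25.5% to 60.8%) and 66.7% in frozen heart (56.9% to 75.4%), against 6.90% to 13.0% in the other 6 profiles. The difference Cox6a2 minus Cox6a1 within a profile, in which scaling cancels, averaged 0.28 ± 1.00 in heart (SD, n = 2) and -3.06 ± 0.39 in the other profiles (SD, n = 6). An exact two-sided permutation test gave p = 0.0714, the smallest that 2 against 6 profiles allow, and 0.25 after adjustment over 7 isoform pairs.

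Cox8b, the muscle form of another small complex IV subunit, was also highest in heart. It had log2 values of 4.08 in FFPE and 4.40 in frozen heart. It stood at 2.37 and 2.47 in FFPE and frozen brain, at 2.59 and 2.92 in FFPE and frozen kidney, and at -0.90 (0 reads) and 2.34 (9 reads) in FFPE and frozen liver. The groups do not overlap, but with 2.28 ± 0.70 the heart difference missed the threshold (limma adjusted p = 0.062). The neighbouring proteasome gene Psmd13, 299 bases away, had a difference of 1.18 ± 0.36 (adjusted p = 0.062). Cox8a, the general form, had values of 5.21 in FFPE and 5.24 in frozen heart, against 4.21 to 4.94 elsewhere, a difference of 0.74 ± 0.32 (adjusted p = 0.211).

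Within the pair, Cox8b minus Cox8a averaged -0.99 ± 0.20 in heart (SD, n = 2) and -2.52 ± 1.57 in the other profiles (SD, n = 6). The difference was 1.53 (exact permutation p = 0.0714, adjusted p = 0.25) and was 0.91 without the FFPE liver profile, in which Cox8b had 0 reads. Heart lay above all 6 others in this difference too.

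Cox7a1, the remaining muscle form, was not above all other profiles in heart. It had log2 values of 4.08 in FFPE and 4.99 in frozen heart, against 4.32 and 4.68 in FFPE and frozen brain and 3.55 to 4.17 in kidney and liver. Its heart values overlapped those of brain (0.51 ± 0.39, limma adjusted p = 0.541). The general form Cox7a2 had values of 4.69 in FFPE and 5.62 in frozen heart, against 3.26 to 5.57 elsewhere (0.83 ± 0.34, adjusted p = 0.184). Cox7a1 minus Cox7a2 averaged -0.62 ± 0.02 in heart (SD, n = 2) and -0.30 ± 0.97 in the others (SD, n = 6), with an exact permutation p of 0.5. Cox7a1 took 39.4% and 39.2% of the pair's reads in FFPE and frozen heart, against 67.8% and 58.5% in FFPE and frozen brain.

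The remaining isoform pairs had exact permutation p-values of 0.286 to 0.714. Cox4i2, the form of subunit 4 known from lung and hypoxic cells, stood at log2 4.75 and 3.63 in FFPE and frozen heart, against 2.18 to 3.93 elsewhere (1.12 ± 0.53, limma adjusted p = 0.263). Its partner Cox4i1 stood at 4.94 and 5.05 in FFPE and frozen heart, against 3.71 to 4.75. Relative to the general form, the difference between heart and the other profiles was 0.37 for Cox4i2, -0.66 for Cox6b2, -1.90 for Cox7b2 and -0.47 for Ndufa4l2. Cox6b2 and Cox7b2 are forms best known from testis. No p-value of the 7 pairs passed after adjustment, and the smallest that could be reached was 0.0714 before it.

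**Figure D3:**
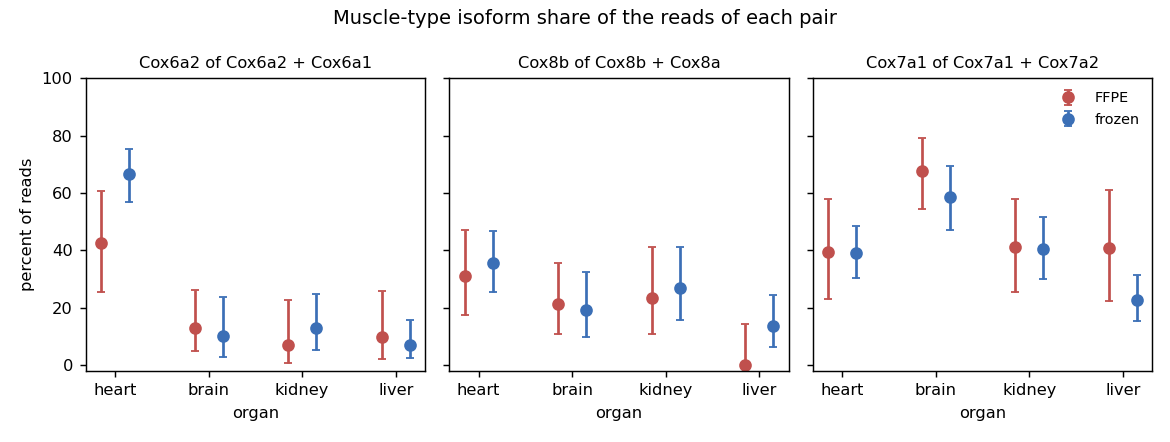
Muscle isoform as a percentage of the reads of its pair (y axis) in the FFPE and frozen profiles of each organ (x axis); bars are Clopper-Pearson 95% intervals for counting error. Both heart points lie above all others for Cox6a2 (42.4% and 66.7%) and for Cox8b (31.0% and 35.6%), and brain has the highest points for Cox7a1. For Cox8b the other points run from 0% to 26.9%. There the interval of FFPE heart (17.6% to 47.1%) overlaps that of frozen kidney (15.6% to 41.0%).

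Skeletal muscle also makes the muscle forms. Of 6 skeletal muscle markers, 2 were called higher in heart, Acta1 and Ckm. The 6 summed to 134 and 340 RPM in FFPE and frozen heart, against 70.3 to 173 elsewhere, so FFPE heart lay inside that range. In frozen heart Acta1 (197 reads) and Ckm (140 reads) held most of the 507 reads. The other markers were not called, and Tnnt3 stood at log2 2.79 and 3.28 in FFPE and frozen heart, against 2.41 to 3.89 elsewhere. The 8 cardiomyocyte markers summed to 8269 and 15056 in FFPE and frozen heart, against 694 to 1042. None of these markers was at 0 reads in any profile. The part of these cell types, and of the endothelial genes given above, in the members' heart differences was not tested.

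Cycs, the carrier of electrons between complexes III and IV, was the second called member. It stood at log2 6.94 in FFPE heart (97 reads) and 7.04 in frozen heart (196 reads), against 5.17 in FFPE liver and 5.87 to 6.34 in the other 5 profiles. The lowest heart value was above the highest of the others, and the difference was 1.06 ± 0.24 (limma adjusted p = 0.0094). The neighbouring gene 5430402O13Rik, 73 bases away, had a difference of 0.33 ± 0.32 (adjusted p = 0.665). Cyc1, which encodes cytochrome c1 of complex III, had values of 5.35 in FFPE and 6.36 in frozen heart, inside the range of 5.12 to 6.38 elsewhere (0.12 ± 0.27, adjusted p = 0.880).

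Atp5a1, the alpha subunit of the catalytic head of ATP synthase, was the remaining member called higher. It had log2 values of 7.43 in FFPE and 7.39 in frozen heart, against 6.19 to 7.11 elsewhere, with frozen liver the nearest (0.89 ± 0.23, limma adjusted p = 0.026). The gene overlaps Haus1, whose difference was -0.29 ± 0.43 (adjusted p = 0.794). Atp5b, the beta subunit of the same head, had values of 6.75 in FFPE and 7.27 in frozen heart, against 6.23 to 7.10 elsewhere (0.39 ± 0.24, adjusted p = 0.421). Within each preservation heart was above the other organs for Atp5b, but pooled over both the ranges overlap. Calls of Cycs and Atp5a1 were lost when either heart profile was left out. That of Atp5a1 was also lost with the receptor scaling and without the preservation term. It was lost as well without either brain profile and without frozen kidney, and was kept in 9 of 17 settings.

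Ndufb4b, a short copy of the complex I subunit gene Ndufb4, was the member called lower in heart. It had 0 reads in FFPE heart and 0 in frozen heart, against 4 to 11 reads in each other profile and 40 in all. With a floor of 3 reads over the heart profiles, it was at least 3.03-fold lower. The limma log2 difference was -3.19 (adjusted p = 0.024). It rests on the values given to 0 reads, -0.67 in FFPE and -1.58 in frozen heart. Ndufb4b passed the filter on low values only through the other organs. The call was lost with voom weights, and the stricter filter left the gene out. Its span of 471 bases lies inside Dock8, a gene of leukocytes, which had a heart difference of -0.58 ± 0.23 (adjusted p = 0.167). Reads of near-identical copies may be split between them, so Ndufb4b and Ndufb4c (485 bases) are uncertain. RefSeq lists Ndufa11b and Ndufs6b as pseudogenes, and the same holds for them.

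Of the members with the highest mean value in each complex, those not yet described were not called in heart. Ndufs1, the largest core subunit of complex I, had log2 values of 6.25 in FFPE and 6.29 in frozen heart, against 5.64 to 6.26 elsewhere (difference 0.33). Sdha, the flavoprotein of complex II, had values of 5.56 in FFPE and 6.0 in frozen heart, against 5.19 to 5.95 (difference 0.07). Cox5a, a structural subunit of complex IV, had values of 5.35 in FFPE and 6.13 in frozen heart, against 4.06 to 5.74 (0.97 ± 0.30, limma adjusted p = 0.066). These values grow with gene length, so they are not compared between genes. After Cox8b, the largest positive heart difference that missed the threshold was that of Ndufa11b, a pseudogene with 3 to 11 reads per profile (1.38 ± 0.70, adjusted p = 0.308).

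The 3 most negative members that were not called had few reads. Ndufb4c (0 to 12 reads per profile) had a heart difference of -1.21 ± 0.96, Ndufs6b (1 to 19 reads) of -0.97 ± 0.75 and Cox7b2 (0 to 9 reads) of -0.88 ± 0.96. Their SE were of the size of the differences, and limma's adjusted p ranged from 0.556 to 0.698.

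**Figure D4:**
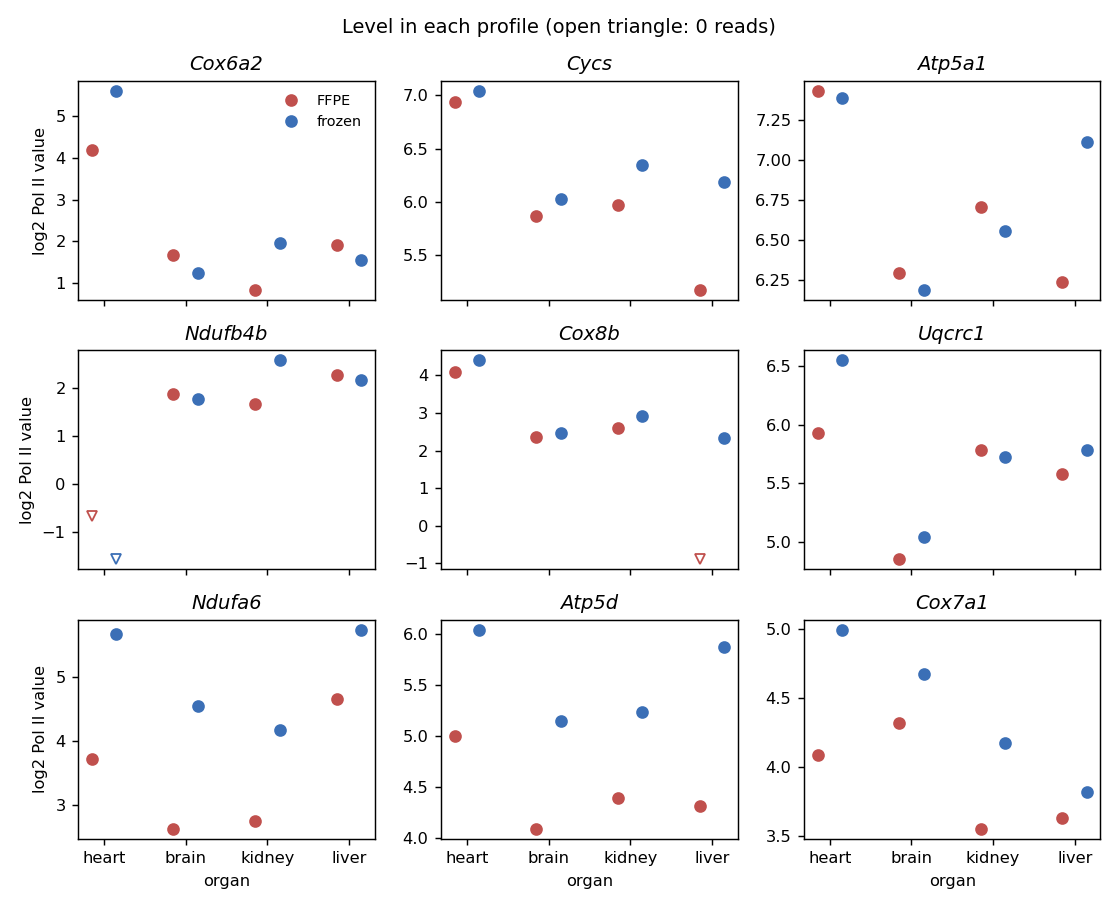
Deposited log2 values (y axis) of named members in the FFPE and frozen profiles of each organ (x axis); each point is 1 profile and an open triangle marks 0 reads. Cox6a2, Cycs and Atp5a1 have both heart points above the rest, Ndufb4b has both heart points at 0 reads, and Ndufa6 and Atp5d have the FFPE point below the frozen point in every organ.

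In brain against the other organs, no member was called higher and 1 was called lower, where 3.43% of all genes were called higher and 4.02% lower. The members' median log2 difference was -0.31 (all genes 0.01), and 21 of 90 were positive. Within frozen tissue the median was -0.43 with 21 positive, and within FFPE tissue -0.14 with 33 positive. Heart is part of the mean that brain, kidney and liver are each set against, so a gene raised in heart lowers their differences. The differences of these organs are therefore not separate from those of heart. By unadjusted p below 0.05 limma counted 0 higher and 10 lower (11.1%), where 7.98% of all genes were higher and 10.3% lower, so the lower count is close to the background. Brain was below every other organ within both preservations for 11 members (12.2%), against 10.3% of all genes, and above for 0, against 11.3%. Uqcrc1, a core subunit of complex III, was the called member. It had log2 values of 4.85 in FFPE and 5.04 in frozen brain, against 5.93 and 6.55 in FFPE and frozen heart and 5.58 to 5.78 in kidney and liver. Brain was below all 6 (-0.95 ± 0.25, limma adjusted p = 0.021); the call was lost without either brain profile, without frozen heart or without FFPE kidney.

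Other brain differences did not pass. Sdhd, a membrane anchor of complex II, had log2 values of 2.37 in FFPE and 2.16 in frozen brain, against 3.15 to 4.65 elsewhere (-1.44 ± 0.52, limma adjusted p = 0.110). Cox7a2 had values of 3.26 in FFPE and 4.18 in frozen brain, with a difference of -1.08 ± 0.34 (adjusted p = 0.057), and Cox6a2 had -1.21 ± 0.68. The most positive were Ndufb4c (0.98 ± 0.96), Uqcr11 (0.92 ± 0.99), a small complex III subunit with 0 to 6 reads per profile, and Ndufb4b (0.75 ± 0.83). Their SE were as large as the differences or nearly so.

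In kidney no member was called in either direction by limma, where 0.919% of all genes were called higher and 0.456% lower. By unadjusted p below 0.05 there were 0 higher and 4 lower (4.44%), where 5.09% of all genes were higher and 5.55% lower. With voom weights, which give less weight to low counts, 0 members were called higher and 1 lower, where 1.88% of all genes were called higher and 0.710% lower. The median was -0.21 (all genes -0.00) with 30 of 90 positive. Within frozen tissue it was -0.33 with 16 positive, and within FFPE tissue only -0.04 with 42 positive. Kidney was below every other organ in both preservations for 6 members (6.67%), close to the 6.01% of all genes, and above for 0, against 7.34%. Ndufs7, a core subunit of complex I, came nearest to the threshold, at log2 4.00 in FFPE kidney and 4.04 in frozen kidney, against 4.28 to 6.2 elsewhere (-1.22 ± 0.31, adjusted p = 0.052). Uqcr11 had -1.37 ± 0.99 and Cox6a2 -1.30 ± 0.68, and the most positive were Ndufb4b (1.15 ± 0.83), Ndufb4c (1.09 ± 0.96) and Ndufs6b (1.01 ± 0.75).

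In liver 1 member was called higher and 1 lower, where 4.52% of all genes were called higher and 3.39% lower. The median was 0.04 (all genes -0.02) with 49 of 90 positive, and it turned to -0.07 with 36 positive when mitochondrial genes and scaling factors were left out (all genes -0.14). Liver was above every other organ in both preservations for 5 members (5.56%), against 10.8% of all genes, and below for 4 (4.44%), against 9.91%. The liver profiles of hepatocyte markers differed: their sum was 1535 RPM in FFPE liver and 8748 in frozen liver, against 60.4 to 158 elsewhere.

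Ndufa6, an accessory subunit of complex I, was the member called higher in liver. It had log2 values of 4.66 in FFPE and 5.74 in frozen liver, against 2.62 to 3.72 in the other FFPE profiles and 4.17 to 5.68 in the other frozen ones (1.28 ± 0.38, limma adjusted p = 0.039). Liver and heart were nearly level in frozen tissue. Cox8b was called lower, with its 0 reads in FFPE liver and 9 in frozen liver, against 8 to 31 reads in the other profiles. Its log2 difference of -2.42 ± 0.70 (adjusted p = 0.034) rests in part on the value given to 0 reads, and was -0.92 at the smallest over the settings tried, where it was not called. Calls of both were lost in most settings: Ndufa6 was kept in 6 of 17 and Cox8b in 7 of 17.

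Further liver differences missed the threshold. Cox7b2 (1.77 ± 0.96), Ndufb4b (1.28 ± 0.83) and Atp5mpl (1.02 ± 0.53), a small ATP synthase subunit, were the most positive. Cox7b (-1.04 ± 0.41), the general partner of Cox7b2, Cox4i2 (-1.02 ± 0.53) and Cox6a2 (-0.86 ± 0.68) were the most negative.

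FFPE against frozen tissue was compared with organ as a block (4 against 4 profiles). No member was called higher and 2 were called lower in FFPE tissue, where 0.153% of all genes were called higher and 0.422% lower. The median over the members was -0.38, where that of all genes was -0.01. Of the members, 15 of 90 members were positive, and 14 (15.6%) had an unadjusted p below 0.05 in the downward direction and 0 in the upward, against 5.53% and 3.79% of all genes. In 24 members (26.7%) the FFPE value was below the frozen value in all 4 organs, against 8.45% of all genes. In 3 (Atp5c1, Atp5d and Ndufa7) every FFPE value was below every frozen value, 3.33% of members against 1.33% of genes. With any 1 profile left out, 0 or 1 member was called lower, where 0.0487% to 0.299% of all genes were. The hepatocyte markers also had a negative FFPE median, -0.77 with 0 of 7 called, and their part in the members' differences was not tested.

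Within an organ there is 1 profile on each side and no test. The members' median FFPE minus frozen difference was -0.41 in heart, -0.08 in brain, -0.10 in kidney and -0.63 in liver. FFPE heart and FFPE liver were also the profiles with the fewest reads. Heart gives a single FFPE minus frozen value, so its contrast with the other 3 organs takes the spread from those organs and can say little on heart alone. In that fit limma called 0 of 26758 genes (0%) and 0 members. By unadjusted p below 0.05 there were 2 members up (2.22%) and 0 down, no more than the 3.13% up and 3.00% down over all genes. By complex, the FFPE median was -0.39 for ATP synthase, -0.34 for complex I, -0.11 for complex II, -0.60 for complex III and -0.45 for complex IV.

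Ndufa6 had the largest called FFPE difference. It stood at log2 3.72 in FFPE heart against 5.68 in frozen heart, at 2.62 in FFPE brain against 4.55 in frozen brain, at 2.75 in FFPE kidney against 4.17 in frozen kidney, and at 4.66 in FFPE liver against 5.74 in frozen liver. It was lower in FFPE tissue in 4 of 4 organs (-1.60 ± 0.33, limma adjusted p = 0.022). Its neighbour Smdt1, 1076 bases away, had -0.54 ± 0.26 (adjusted p = 0.530).

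Atp5d, the delta subunit of the ATP synthase stalk, was the other called gene. It stood at log2 5.00 in FFPE heart against 6.05 in frozen heart, at 4.09 in FFPE brain against 5.15 in frozen brain, at 4.39 in FFPE kidney against 5.24 in frozen kidney, and at 4.31 in FFPE liver against 5.88 in frozen liver. The 4 FFPE values were all below the 4 frozen values (-1.13 ± 0.26, limma adjusted p = 0.042). The call held in 3 of 16 settings, and that of Ndufa6 in 8 of 16. Atp5d overlaps Cbarp, which had 0.06 ± 0.20 (adjusted p = 0.957), and lies 176 bases from Midn, which had -0.19 ± 0.18 (adjusted p = 0.816).

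Among members not called, Atp5md (-1.40 ± 0.55), a small ATP synthase subunit, Cox8b (-1.0 ± 0.61) and Cox7a2 (-0.99 ± 0.30, limma adjusted p = 0.177) were the most negative. The value of Cox8b rests on liver, where FFPE tissue had 0 reads: its FFPE minus frozen difference was -3.24 there, against -0.32 (heart), -0.10 (brain) and -0.33 (kidney). Ndufs6b (1.25 ± 0.65), Cox4i2 (0.55 ± 0.46) and Ndufa11b (0.44 ± 0.60) were the most positive. Ndufs4, an accessory subunit of complex I, was the single member higher in FFPE tissue in all 4 organs (0.25 ± 0.24, adjusted p = 0.808). Members are short genes: the median span is 6975.5 bases, against 17804 for all coding genes, and 78 of 90 lie below that median.

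**Figure D5:**
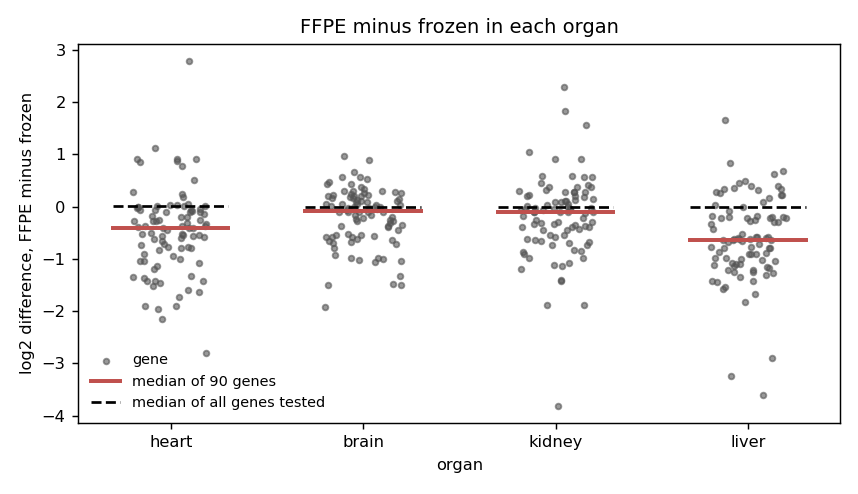
FFPE minus frozen log2 difference of each member (y axis) in each organ (x axis); points are genes, solid bars their medians and dashed bars the medians of all genes tested. The members' medians are -0.41 in heart, -0.08 in brain, -0.10 in kidney and -0.63 in liver.

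Genes that work beside the respiratory chain, and cytosolic ribosomal protein genes outside it, were described from 5 further lists. Among 18 carriers, porins and energy transfer genes, 3 were called higher in heart and 0 lower (median 0.47), where 3.06% of all genes were called higher and 2.18% lower. Slc25a4, the ADP/ATP carrier of heart and muscle, had log2 values of 6.32 in FFPE and 8.0 in frozen heart, against 3.75 to 5.70 elsewhere (2.37 ± 0.32). Ckmt2, the mitochondrial creatine kinase of striated muscle, had values of 5.67 in FFPE and 6.85 in frozen heart, against 2.95 to 3.63 elsewhere (2.89 ± 0.42). Both were above every other profile. Ucp2, an uncoupling protein family member, was the other call (1.01 ± 0.23).

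Of 18 genes of the citric acid cycle and pyruvate dehydrogenase, 2 were called higher in heart and 0 lower (median 0.36): Cs, citrate synthase (1.08 ± 0.23), and Ogdh, of the oxoglutarate dehydrogenase complex (1.04 ± 0.22). The 44 tested assembly factors had 0 calls in either direction in heart by limma and a median of 0.12. By unadjusted p below 0.05 they had 3 higher (6.82%) and 1 lower, where 9.01% of all genes were higher and 9.04% lower. The 18 regulators of mitochondrial genes also had 0 calls (median 0.11), with 3 higher (16.7%) and 0 lower by unadjusted p. So had 26 cytosolic ribosomal proteins, short genes outside mitochondria (median 0.22), with 4 higher (15.4%) and 0 lower. The heart difference was positive for 77.8% of carriers, 72.2% of citric acid cycle genes and 76.9% of ribosomal proteins. It was positive for 66.7% of regulators and 63.6% of assembly factors, against 88.9% of the members and 49.8% of all genes. By unadjusted p below 0.05 limma had 7 of 18 citric acid cycle genes higher (38.9%) and 6 of 18 carriers (33.3%). Both shares were above the 30% of the members. Each of these lists had 1 gene lower (5.56%). Called higher were 2 of 18 citric acid cycle genes and 3 of 18 carriers, against 3 of 90 members.

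In the other organs the calls in these lists fell on single genes. Ppargc1a, a coactivator of mitochondrial genes, had log2 values of 7.38 in FFPE and 7.20 in frozen kidney, against 5.42 to 6.85 elsewhere, and was called higher in kidney (1.30 ± 0.23, limma adjusted p = 0.0031), the only call in kidney in these 5 lists. It was called lower in brain (-0.93 ± 0.23) and in liver (-0.84 ± 0.23). In liver Suclg2 of the citric acid cycle (1.63 ± 0.39), the fatty acid regulator Ppara (1.57 ± 0.23), the aspartate-glutamate carrier Slc25a13 (1.37 ± 0.27) and the ribosomal protein gene Rpl10a (0.87 ± 0.26) were called higher. Slc25a4 (-2.17 ± 0.32), Ckmt2 (-1.36 ± 0.42), Ppargc1b (-1.35 ± 0.28) and Ogdh (-0.82 ± 0.22) were called lower there.

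In brain Ckmt1, the mitochondrial creatine kinase of other tissues, was called higher (1.55 ± 0.46). Ppara (-2.04 ± 0.23), the complex IV assembly factor Coa3 (-1.41 ± 0.36), Ucp2 (-1.11 ± 0.23), Slc25a13 (-0.98 ± 0.27) and Idh2 of the mitochondrial matrix (-0.83 ± 0.26) were called lower. In FFPE against frozen tissue the 5 lists held 1 call, Slc25a3, the phosphate carrier that feeds ATP synthase (-1.14 ± 0.24, limma adjusted p = 0.026). The FFPE medians were -0.42 for ribosomal proteins, with 1 of 26 positive (-0.38 for the members), -0.29 for carriers, -0.22 for the citric acid cycle, -0.14 for assembly factors and -0.14 for regulators.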

How the data were processed

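The labels list 32 libraries in 16 groups of 2, Pol II or input. The table of Pol II profiles was used and the inputs were not analysed here. The submitters' processing notes name Bowtie2, featureCounts, limma and build mm10, without versions. In the deposited table the authors give log2 values in the form that limma's voom returns: reads plus 0.5, divided by a scaled library total. Whole reads came back from 100% of values within a relative tolerance of 1e-06. A fixed 0.5 reads weighs more in shallow profiles, so differences of genes with few reads depend on depth.

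limma 3.58.1 (R 4.3.3; eBayes with a mean trend, 3 residual degrees of freedom, prior 19.4) was fitted to 26758 genes with organ and preservation as terms, and Benjamini-Hochberg adjusted over them. It was also run on simulated data in which no preservation effect was set and low-value genes carried no difference. That run does not show how the fit performs for members with few reads. The design, including the difference between heart and the other organs in FFPE minus frozen values, the isoform pairs and the gene lists were written down with earlier results of these data known, as were the members. Named genes were those called, the isoform pairs, Cycs and Cyc1, the 3 largest uncalled differences per direction and the highest member of each complex. Replicate numbers in the labels differ in date and library kit, but the columns carry none, so these cannot be told apart from the profiles. Entrez numbers of 25275 rows (93.0%), and of all 90 members, matched RefSeq; 1275 rows had no symbol. Alternatives were other filters, added reads, scalings, voom weights, no preservation term and each profile left out; leaving out FFPE heart and FFPE kidney together was chosen after seeing the data.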

Additional observations from a re-analysis of the deposited data

Results flagged for a closer look

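Cox6a2 in heart was the single value that stood far from the others of its kind. Among the 4 frozen profiles it stood at log2 5.60 in frozen heart, and the gap to the next profile was 0.834 of the whole range, just past the critical value of Dixon's test at the 95% level. In all, 44 groups of 4 values were examined, and chance flags about 1 in 20 groups.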

How the results depend on the processing

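No paired analysis was possible because the columns carry no replicate numbers; FFPE and frozen profiles were matched by organ only. Median differences of the members kept their direction in heart, brain, kidney and FFPE tissue under every setting tried. Leaving out 1 profile gave 0.39 to 0.61 in heart and -0.43 to -0.14 (without frozen brain) in brain. It gave -0.33 to -0.04 in kidney and -0.0202 (without frozen liver) to 0.24 in liver. The kidney median was thus near 0 without frozen kidney, where 42 members were positive. Scaling to silent receptors gave a heart median of 0.80. Single calls were less stable, and the causes were not tested. Shares in brackets are of all genes called in the same setting and direction. Members called higher in heart numbered 7 with voom weights (4.47%), against 3 in the main fit (3.06%). They numbered 2 to 13 with 1 profile of another organ left out (2.09% to 4.97%). Members called lower in heart numbered 0 with the stricter filter (2.49%) and 0 with voom weights (1.27%). They numbered 0 to 1 with 1 profile of another organ left out (0.996% to 3.64%). Lower in brain were 2 with the stricter filter (5.11%), 0 with the receptor scaling (2.90%) and 3 with voom weights (4.65%). They were 0 without FFPE heart and FFPE kidney (1.96%) and 0 to 3 with 1 profile of another organ left out (2.46% to 6.92%). Lower in kidney were 1 with quantile normalization (0.758%) and 1 with voom weights (0.710%). They were 0 to 1 with 1 profile of another organ left out (0.198% to 1.67%). Higher in liver were 0 without mitochondrial genes and scaling factors (3.95%), 0 with the receptor scaling (2.89%) and 3 with voom weights (6.99%). They were 0 without the preservation term (3.41%) and 2 without FFPE heart and FFPE kidney (4.22%). With 1 profile of another organ left out they were 0 to 2 (3.09% to 4.07%). Lower in liver were 2 with quantile normalization (4.09%), 2 without mitochondrial genes (4.67%) and 0 with voom weights (3.30%). They were 0 without the preservation term (2.23%) and 0 without FFPE heart and FFPE kidney (2.64%). With any 1 profile of another organ left out they were 0 (1.69% to 2.48%). Lower in FFPE tissue were 1 with no filter (0.313%), 1 with added reads in proportion to depth (0.292%) and 0 without mitochondrial genes (0.295%). They were 1 with the receptor scaling (0.471%) and 0 without FFPE heart and FFPE kidney (0.270%). With 1 profile left out they were 0 to 1 (0.0487% to 0.299%). A profile left out of an organ leaves 1, which is assumed to vary like the others. The median of all genes was 0.25 in heart, -0.18 in brain, -0.11 in kidney and -0.20 in FFPE tissue with the receptor scaling, and -0.14 in liver and 0.11 in FFPE tissue without mitochondrial genes. No named call reversed. The Cox6a2 call was kept in 16 of 17 settings, that of Cycs in 14 of 17, that of Atp5a1 in 9 of 17 and that of Ndufb4b in 9 of 16. Low reads limit the smallest members.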
